A study of Rattus norvegicus with 15 samples.

Results

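The nuclear genes of the mitochondrial respiratory chain and of ATP synthase were followed in kidneys of 5-week-old rats. Members were all probe sets whose only gene symbol on the array platform began with Ndufa, Ndufb, Ndufc, Ndufs, Ndufv, Uqcr, Cox4i, Cox5, Cox6, Cox7, Cox8 or Atp5, or was Sdha, Sdhb, Sdhc, Sdhd, Cyc1 or Cycs. This gave 160 of 26379 probe sets and 82 of 10969 named genes. By symbol, 35 genes belonged to complex I, 4 to complex II, 9 to complex III, 14 to complex IV and 14 to complex V, which is ATP synthase. The rule also took in 3 assembly factors of complex I (Ndufaf3, Ndufaf4 and Ndufaf7), the ATP synthase inhibitor Atp5if1 and 2 pseudogenes (Cox6c-ps1 and Ndufa13-ps1). Ndufa4 stands with complex I by its symbol, although its protein is now assigned to complex IV. No probe set with Cycs or Cox7a1 as its only symbol was found.

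Total RNA of the kidneys had been measured on 15 arrays of 3 designs, called A, B and C, which carry different probe sets, with kidneys numbered 1 to 5 on each. On B and C, kidneys 1 to 3 came from the inbred Dahl salt-sensitive strain (Dahl S, n = 3) and kidneys 4 and 5 from a strain congenic for chromosome 10 on the Dahl S background (n = 2). On A, kidneys 1 to 3 are Dahl S (n = 3), and the strain of kidneys 4 and 5 is unsettled, because A describes them as Dahl S while the same numbers are congenic on B and C. Each of these A kidneys is therefore given as its own value. Both strains share the Dahl S background. Donor and extent of the congenic segment, diet, sex and the number of animals behind an array were not found in the labels.

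Complexes I and II take electrons from NADH and succinate and pass them through ubiquinone to complex III, cytochrome c and complex IV, where oxygen is reduced. Complexes I, III and IV pump protons out of the mitochondrial matrix, and complex V lets them back in to make ATP. Tubule cells of the kidney, above all those of the proximal tubule and the thick ascending limb, are rich in mitochondria, because sodium reabsorption consumes ATP. The transcription factors NRF1, GABP (also called NRF2) and YY1 are known to bind promoters of many of these genes.

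Promoters were read from RefSeq (rat assembly GRCr8) as windows of 300 bases, from 250 before to 50 after the transcription start, and 70 of the 82 genes had one. The 4 windows shown here hold an NRF1 core match close to the start. Only the 120 bases before the start are printed, 5′ to 3′ on the strand of the gene, with motif matches in capitals. They are Ndufa11 (chr9:1637494-1637613, plus strand), Uqcrc1 (chr8:118468103-118468222, plus strand), Atp5me (chr14:1464740-1464859, plus strand) and Atp5po (chr11:44657484-44657603, minus strand).
Ndufa11: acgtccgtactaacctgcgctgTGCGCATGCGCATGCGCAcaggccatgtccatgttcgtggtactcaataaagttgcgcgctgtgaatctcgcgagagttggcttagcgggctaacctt
Uqcrc1: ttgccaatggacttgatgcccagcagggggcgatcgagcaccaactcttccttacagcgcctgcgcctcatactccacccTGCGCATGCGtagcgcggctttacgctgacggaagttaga
Atp5me: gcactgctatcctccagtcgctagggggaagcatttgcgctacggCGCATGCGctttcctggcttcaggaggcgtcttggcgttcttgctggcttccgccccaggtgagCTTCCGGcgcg
Atp5po: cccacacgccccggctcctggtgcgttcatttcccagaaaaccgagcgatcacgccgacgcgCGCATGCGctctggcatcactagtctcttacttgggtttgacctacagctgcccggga

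The motifs were searched on both strands, and the shorter NRF1 motif TGCGCA can overlap the NRF1 core. The 8-letter NRF1 core CGCATGCG was in 7 of the 70 windows (10%), against 425 of 19005 windows of protein-coding genes (2.24%). With G before it and C after it, the core was in 4 member windows (5.71%), against 216 of all (1.14%). The shorter motif was in 17 member windows (24.3%) against 1745 of all (9.18%), and the GABP core CCGGAAG in 19 (27.1%) against 2137 (11.2%). The YY1 core AAGATGGC was in 16 member windows (22.9%) against 745 of all (3.92%). At least 1 of these motifs was present in 41 member windows (58.6%) and in 4187 of all (22%). Ndufa11, an accessory subunit of complex I, held 2 overlapping NRF1 cores, starting 96 and 90 bases before the start. Atp5me, a membrane subunit of ATP synthase, held 1 NRF1 core and, 11 bases before the start, 1 GABP core on the opposite strand. A match is a run of letters and no measure of binding.

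**Figure D1:**
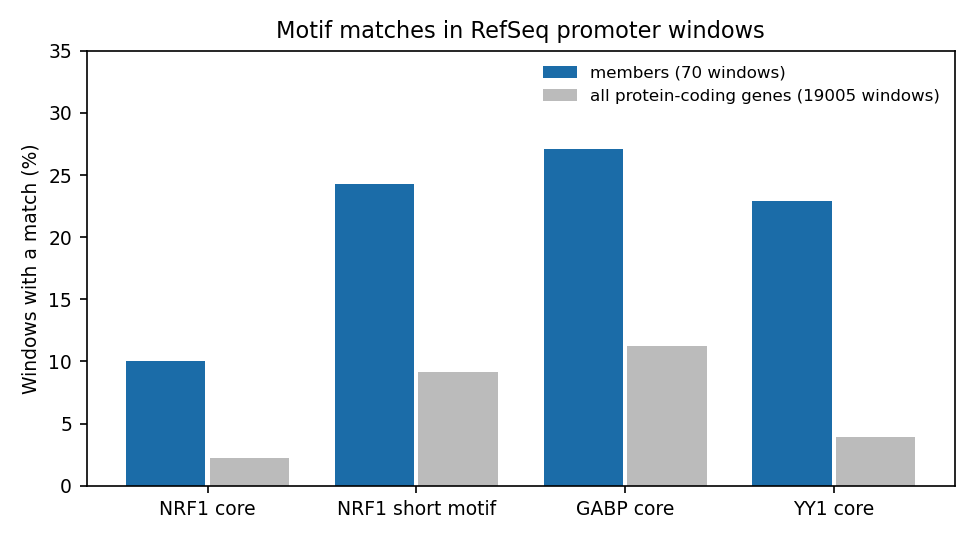
Share of RefSeq promoter windows of 300 bases with at least 1 match (vertical axis, percent) for the 8-letter NRF1 core, the shorter NRF1 motif, the GABP core and the YY1 core. Blue bars are the 70 windows of respiratory chain and ATP synthase genes and grey bars the 19005 windows of protein-coding genes; the blue bar is the higher for each motif, for example 22.9% against 3.92% for the YY1 core.

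Of the 160 probe sets, 136 reached the level needed for a test, a mean signal at or above the median of all values of their design. Design A had 101 member probe sets, of which 88 reached it (87.1%, against 50.5% of everything on the design). For B these numbers were 30 and 23 (76.7% against 50.2%), and for C 29 and 25 (86.2% against 50.6%). At gene level 78 genes had a tested probe set. The 4 without one were Cox6b2, Cox8b, Ndufaf7 and the pseudogene Cox6c-ps1. Strain could be compared for 37 genes, through 48 probe sets on B or C, while 41 genes were only on A. A suffix (f, g, i, r or s) was carried by 56 member probe sets. Some of these suffixes mark probes that other transcripts may share, and signal there may include close copies or pseudogenes. Proximal tubule markers were above background on A, where all 10 of those present were tested, with a summed signal of 163409.5 to 217613. Fewer cells of a type and less RNA per cell cannot be told apart in such whole-kidney samples. After scaling by the authors, array medians lay within 294.5 to 334.3 for A, 472.8 to 519.5 for B and 491.3 to 524.4 for C. The number of arrays limits the precision.

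No respiratory chain or ATP synthase probe set passed the test for a difference between congenic and Dahl S kidneys, on B or on C. With limma's moderated test and Benjamini-Hochberg adjustment over all probe sets tested, 0 of 23 members on B passed an adjusted p of 0.05, where 4 of 4385 probe sets passed (0.0912%). On C, 0 of 25 passed, and so did 0 of 4420 over the whole design (0%). At an unadjusted p under 0.05, 0 of 23 members were found on B (all probe sets 3.49%) and 1 of 25 on C (all probe sets 6.2%). Leaving out congenic kidney 5 gave 31 calls on B and 35 on C over all probe sets, and no member was called in any of the 28 settings run on the 2 designs. In the fits as reported, the smallest adjusted p of a member was 0.775 (limma), that of Ndufa10l1 on C.

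The differences, given as congenic minus Dahl S on the log2 scale, were small. Their median was -0.02 over the 23 members on B, against -0.005 over all 4385 probe sets, and -0.02 over the 25 on C, against -0.01 over all 4420. Below 0 lay 14 of 23 members on B (60.9%, all probe sets 51.4%) and 18 of 25 on C (72%, all probe sets 52.1%), but 10 of 25 on C after quantile normalization. The 95% interval of the difference stayed within 2-fold either way for 23 of 23 members on B (all probe sets 91.8%) and for 23 of 25 on C (92%, all probe sets 93.5%). It stayed within 1.5-fold for 21 of 23 on B (all probe sets 61.5%) and 21 of 25 on C (all probe sets 61.3%). Both congenic values lay below all Dahl S values for 0 of 23 members on B (all probe sets 9.44%) and 2 of 25 on C (12.2%). They lay above for 2 of 23 on B (7.73%) and for 1 of 25 on C (10.2%). The shares without overlap lay near or below those of all probe sets.

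**Figure D2:**
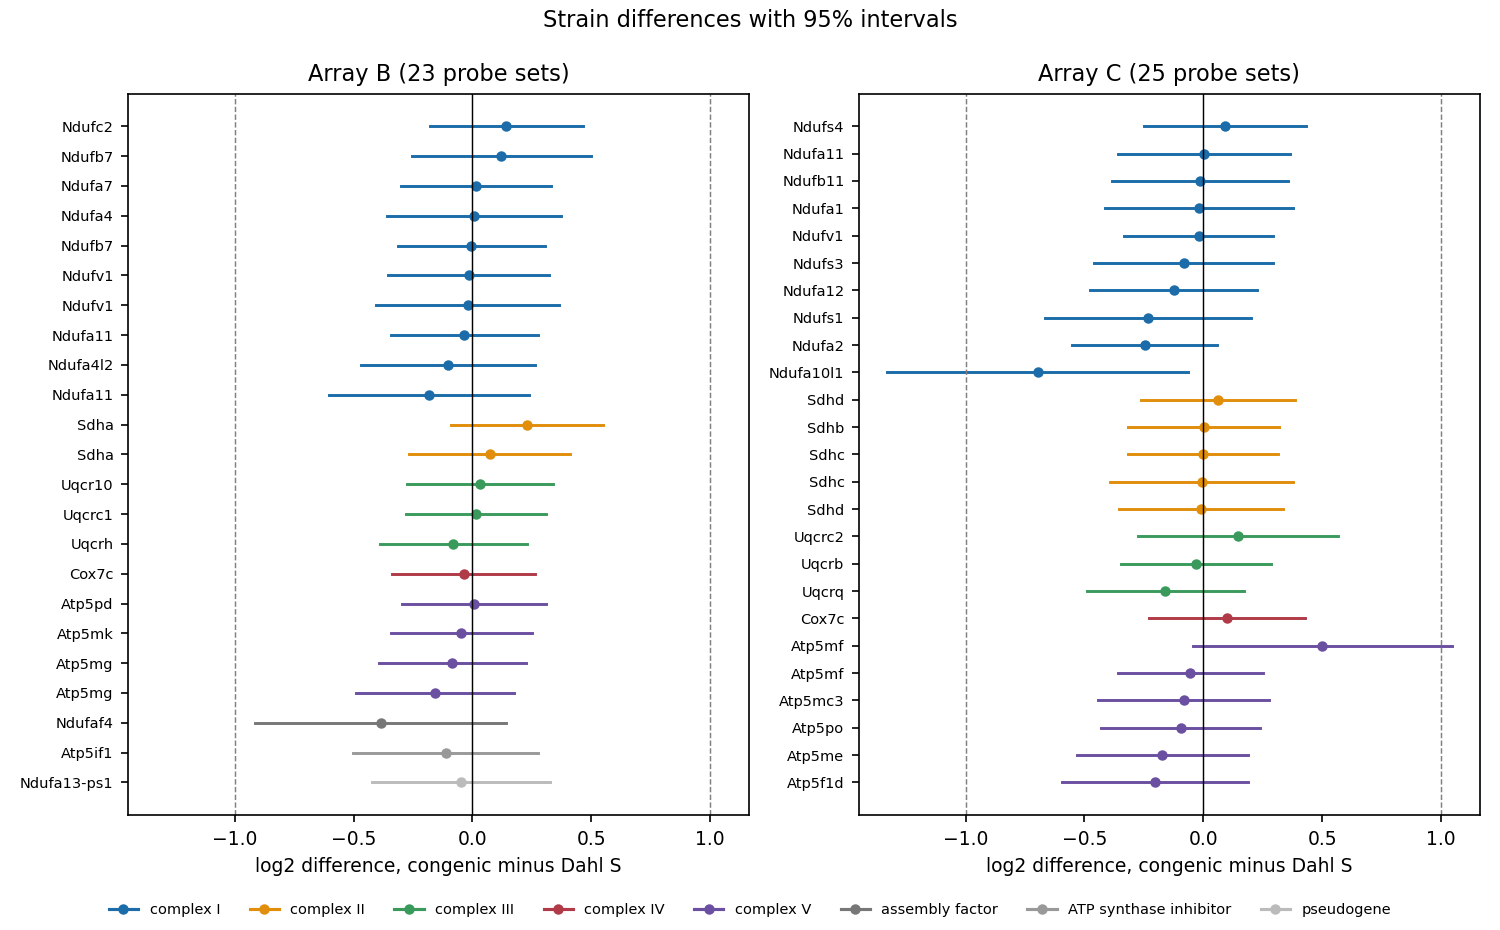
Log2 difference, congenic minus Dahl S, for each tested member probe set on array B (left, 23) and array C (right, 25), 3 Dahl S against 2 congenic kidneys. Points are limma estimates, bars their 95% intervals, colours the complexes and dashed lines a 2-fold difference; all bars but that of Ndufa10l1 on C include 0, and none of the probe sets passed an adjusted p of 0.05.

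In complex I, the entry point for NADH, 10 probe sets of 7 genes were tested on B, with a median difference of -0.01 (range -0.18 to 0.14). On C there were 10 probe sets of 10 genes, with a median of -0.05 (range -0.70 to 0.09), and 8 of them were below 0 (all probe sets 52.1%). Ndufa10l1, a gene on chromosome 6 named as like the accessory subunit Ndufa10, had the smallest p of all members. Its signal on C was 4140.0, 4386 and 4664 in Dahl S kidneys 1 to 3 and 1923 and 3819 in congenic kidneys 4 and 5. Both congenic values were the lower, but the step from kidney 5 to kidney 4 was larger than that from Dahl S to kidney 5. The limma difference was -0.70 (SE 0.27), with an unadjusted p of 0.035 and an adjusted p of 0.775. Without congenic kidney 5 it was -1.19, with an adjusted p of 0.0508, and it then rested on kidney 4 alone.

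Ndufa2, an accessory subunit of the matrix arm (chromosome 18), read 4102, 4142 and 4271 in Dahl S and 3605 and 3430 in congenic kidneys on C. The strains did not overlap, and the difference was -0.25 (SE 0.13, adjusted p = 0.837 in limma). Ndufs1, the largest core subunit and carrier of iron-sulfur clusters, read 3599, 3709 and 3635 in Dahl S and 3769 and 2557 in congenic kidneys. Here kidney 4 was the highest of the 5 and kidney 5 the lowest. The difference of -0.23 (SE 0.18, adjusted p = 0.870) turned to 0.05 without kidney 5. The other core subunits on C were close to 0, with Ndufv1, which binds NADH, at -0.02 and Ndufs3 at -0.08.

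On B, Ndufc2, a membrane-arm subunit (chromosome 1), was the complex I probe set whose congenic values were both above Dahl S. It read 10769, 9269.7 and 9647 in Dahl S against 10941 and 10866 in congenic kidneys. The gap to the nearest Dahl S kidney was smaller than the spread among the Dahl S kidneys, and the difference was 0.14 (SE 0.13, adjusted p = 0.998). Both complex I genes tested on B and C gave small values on each. Ndufv1 was at -0.02 in each of its 2 probe sets on B and at -0.02 on C. Ndufa11 was at -0.18 and -0.03 on B and at 0.00 on C. Ndufa4l2, a hypoxia-inducible relative of Ndufa4, was at -0.10 (SE 0.15) on B, and turned to 0.01 without kidney 5.

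Further complex I genes were read on A and on B or C. Ndufs4, an accessory subunit whose loss in people causes a mitochondrial disease, was at 0.09 (SE 0.15) on C, with 1026, 976.1 and 901.5 in Dahl S and 951.5 and 1115 in congenic kidneys. Kidney 5 was the highest there, but on A the same gene read 3217, 2918 and 2144 in Dahl S, 3836 in kidney 4 and 2481 in kidney 5, where kidney 4 was the highest. Ndufa4 was at 0.01 (SE 0.15) on B, with 2686, 3023 and 2926 in Dahl S and 3226 and 2589 in congenic kidneys, which lay on either side of Dahl S. Ndufb11, an X-linked membrane-arm subunit, was at -0.01 (SE 0.16) on C. The other complex I probe sets were at -0.02 for Ndufa1 (SE 0.17) and -0.12 for Ndufa12 (SE 0.15) on C, and on B at 0.01 for Ndufa7 (SE 0.13) and at 0.12 and 0.00 for the 2 of Ndufb7.

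Complex II, succinate dehydrogenase, also belongs to the citric acid cycle and is the one complex with no mitochondrially encoded subunit. Sdha, its flavoprotein, had 2 tested probe sets on B. One read 6569, 5711 and 6346 in Dahl S and 7409 and 7133 in congenic kidneys, so that both congenic kidneys were above all Dahl S kidneys. Its difference was 0.23 (SE 0.13, adjusted p = 0.998 in limma). The other probe set read 4231, 4565 and 3875 in Dahl S and 4665 and 4208 in congenic kidneys, which overlapped, with a difference of 0.07 (SE 0.14). On C, Sdhb, the iron-sulfur subunit, read 15320, 14044 and 13557 in Dahl S and 13916 and 14695 in congenic kidneys, a difference of 0.00 (SE 0.14). Sdhc and Sdhd anchor the enzyme in the membrane, and their 4 probe sets on C lay between -0.01 and 0.06. The 5 probe sets of complex II on C all had 95% intervals within 1.5-fold.

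Complex III passes electrons from ubiquinol to cytochrome c. Its 3 probe sets on B were at 0.03 for Uqcr10, 0.02 for Uqcrc1 and -0.08 for Uqcrh, the hinge protein. Uqcrc1, a core protein, was the steadiest of these, at 10364, 10563 and 10377 in Dahl S and 10392 and 10719 in congenic kidneys. The signs of Uqcr10 and Uqcrc1 turned with quantile normalization, to -0.01 and -0.03. On C, the core protein Uqcrc2 was at 0.15 (SE 0.18), but its Dahl S values of 1157, 822.4 and 1085 spanned the congenic 1089 and 1150.2. Uqcrb was at -0.03 (SE 0.14), by a dim probe set whose mean of 550.1 was little above the level needed for a test (510.3).

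Uqcrq, a small subunit named for ubiquinone binding, is a member on chromosome 10, the chromosome that carries the congenic segment. It read 15060.1, 16500.1 and 15820 in Dahl S and 15221 and 13130 in congenic kidneys on C, with kidney 5 the lowest and kidney 4 inside the Dahl S range. The difference was -0.16 (SE 0.14, adjusted p = 0.879 in limma). Another chromosome 10 member is Atp5pd, a peripheral stalk subunit of ATP synthase, which on B read 21229, 20885 and 21296 in Dahl S and 22149 and 20308 in congenic kidneys. The 2 congenic values lay on either side of Dahl S, and the difference was 0.00 (SE 0.13). The remaining one of the 3, the complex I subunit Ndufb10, was only on A, with 3826, 4233 and 2559 in Dahl S, 3834 in kidney 4 and 3514 in kidney 5. Whether these genes lie inside the congenic segment cannot be said, because the labels do not give its ends.

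Complex IV, cytochrome c oxidase, was represented on B and C by 1 tested gene, Cox7c, a small subunit. On B it read 17865, 17445 and 18847 in Dahl S and 17498 and 17698 in congenic kidneys, a difference of -0.04 (SE 0.13). On C another Cox7c probe set, with a suffix, read 4568, 4789 and 4719 in Dahl S and 4643 and 5442 in congenic kidneys, a difference of 0.10 (SE 0.14). The strains overlapped on both designs, and without kidney 5 the value on C was -0.01. Strain differences of the other complex IV genes were not measured by tested probe sets of B or C.

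Complex V had 4 tested probe sets of 3 genes on B, with a median difference of -0.06 (range -0.16 to 0.00). On C there were 6 probe sets of 5 genes, with a median of -0.09 (range -0.20 to 0.50) and 5 of 6 below 0 (all probe sets 52.1%). The Atp5mg probe set with the larger difference on B read 28224, 29296 and 25542 in Dahl S and 26206 and 23411 in congenic kidneys, and kidney 4 overlapped Dahl S. Atp5mg, a membrane subunit, was at -0.16 (SE 0.14) by this probe set and at -0.08 (SE 0.13) by its other one. Atp5f1d, the delta subunit of the central stalk, read 13261, 10481 and 14048 in Dahl S and 11099 and 10639 in congenic kidneys on C. Dahl S kidney 2 was the lowest of the 5, and the difference was -0.20 (SE 0.17, adjusted p = 0.875 in limma).

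Atp5mf, another membrane subunit, had 2 probe sets on C that disagreed. One read 1621, 1020.2 and 1488 in Dahl S and 1657 and 2199 in congenic kidneys, a difference of 0.50 (SE 0.23, adjusted p = 0.806). Both congenic values were the higher, kidney 4 by less than the spread among Dahl S. The other probe set of the gene read 15453, 16052 and 15117 in Dahl S and 14737 and 15178 in congenic kidneys, a difference of -0.05 (SE 0.13). Atp5me, whose promoter is printed above, read 5320.0, 4999 and 6135 in Dahl S and 5196 and 4527 in congenic kidneys, a difference of -0.17 (SE 0.15). Atp5po, the stalk subunit that confers oligomycin sensitivity, was at -0.10 (SE 0.14) and turned to 0.02 without kidney 5.

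The remaining genes of complex V showed smaller values. Atp5mk, a small membrane subunit, read 19257, 19275 and 18602 in Dahl S and 18842 and 18058 in congenic kidneys on B, a difference of -0.05 (SE 0.12). Kidney 4 lay inside the Dahl S range and kidney 5 below it. Atp5mc3, 1 of the genes for subunit c of the rotor ring, read 24721, 27989.9 and 25474 in Dahl S and 27343 and 22114 in congenic kidneys on C, a difference of -0.08 (SE 0.15). Here too kidney 5 was the lowest of the 5 and kidney 4 within Dahl S.

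Among the genes that are no subunits, Ndufaf4, an assembly factor of complex I, had the largest difference on B. It read 519.0, 857.4 and 701.4 in Dahl S and 534.6 and 504.0 in congenic kidneys. Dahl S kidney 1 lay between the congenic kidneys, and the difference was -0.39 (SE 0.22, adjusted p = 0.998 in limma). Atp5if1, which blocks ATP hydrolysis by ATP synthase when the proton gradient is lost, read 2355, 1940.4 and 2363 in Dahl S and 1857 and 2253 in congenic kidneys. The difference of -0.11 (SE 0.16) turned to 0.03 without kidney 4. The pseudogene Ndufa13-ps1 was at -0.05 (SE 0.16), and its probes may read the transcript of the parent gene Ndufa13.

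On A, which holds most of the members, the complexes were described kidney by kidney. The spread among Dahl S kidneys 1 to 3, as the SD of log2 signal, had a median of 0.19 over the 88 tested members, as over all 4411 tested probe sets (0.19). On B it was 0.09 over the members against 0.16 over all, and on C 0.09 against 0.16. Signals also differ in brightness, with a median signal for members of 5783 (all tested 1001) on A, 9832 (1314) on B and 8522 (1266) on C. Over the 5 kidneys, the highest value was under 1.5 times the lowest for 58 of the 88 members on A (65.9%, all 58%). The same held for 22 of 23 members (95.7%, all 69.1%) on B and for 23 of 25 (92%, all 68.7%) on C.

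On A, with each gene taken by its probe set of the highest mean, Ndufb2 and Ndufb1 had the largest spread of complex I among Dahl S kidneys. Both are small subunits of the membrane arm. Ndufb2 (chromosome 4) read 10637, 8978 and 5579.7 in Dahl S (8398 ± 2578, SD, n = 3), 10557 in kidney 4 and 5293 in kidney 5. Kidneys 3 and 5 were the low ones, at about the same level. Ndufb1 (chromosome 6) was also low in kidneys 3 and 5, with kidney 3 the lowest. It read 3213, 2831 and 1793 in Dahl S (2612 ± 734, n = 3), 3010.2 in kidney 4 and 2025 in kidney 5. At the other end, Ndufv3, a subunit of the NADH-oxidising module (chromosome 20), read 6029, 6176 and 5743 in Dahl S (5983 ± 220, n = 3), 6267 in kidney 4 and 5908 in kidney 5. Ndufs6, a zinc-binding subunit, was about as steady, at 10347 ± 578 (n = 3), with 10312 in kidney 4 and 10713 in kidney 5.

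Some other complex I subunits had the opposite order among kidneys on A. Ndufv2, a core iron-sulfur subunit, read 9509, 7511 and 12407 in Dahl S, 8975 in kidney 4 and 11473 in kidney 5, so that kidneys 3 and 5 were the high ones. Ndufa9, an accessory subunit of the arm that holds the ubiquinone site, read 2992, 2866 and 4379 in Dahl S, 2665 in kidney 4 and 4375 in kidney 5. Over the 34 probe sets of accessory subunits, which by symbol include Ndufa4 and Ndufa4l2, the median deviation from the mean of kidneys 1 to 3 was taken. It was 0.13, 0.06 and -0.14 in kidneys 1 to 3, 0.14 in kidney 4 and -0.07 in kidney 5. For the 6 probe sets of core subunits it was 0.04, -0.16 and 0.09 in kidneys 1 to 3, -0.09 in kidney 4 and 0.04 in kidney 5. These were of Ndufs1, Ndufs7, Ndufv2 and Ndufs8, the last read by several. They did not all go the same way, since Ndufs7 was lowest in kidney 5 (4848) and Ndufs1 in kidney 3 (827.7). The genes named here and this division were chosen after their values had been seen, and the difference between core and accessory subunits was not tested. The ratio of the 3′ to the 5′ control probe set of hexokinase on A was lowest in kidneys 3 (2.06) and 5 (2.29), against 2.84 to 3.19 in the others. That of GAPDH was 1.04 to 1.07 in all 5. That of beta-actin was lowest in kidneys 4 (1.32) and 5 (1.35), against 1.42 to 1.55 in kidneys 1 to 3, and the part of RNA integrity in the pattern was not tested.

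Complex II was present on A through 1 tested probe set of Sdha. It read 6306, 7673 and 9867 in Dahl S (7949 ± 1796, n = 3), 6033 in kidney 4 and 8572 in kidney 5. Kidney 3 was the highest and kidney 4 the lowest. In complex III, Uqcrc2 read 5102, 5310.4 and 6431 in Dahl S (5614 ± 715, n = 3), 6185 in kidney 4 and 7499.9 in kidney 5, which was the highest. Uqcr11, a small subunit, was at 13102 ± 1838 (n = 3) in Dahl S by its brighter probe set, with the highest value, 15189.8, in kidney 3. By its other probe set kidney 1 was the highest (11491), and kidney 3 (9068) was the lowest Dahl S kidney. Uqcrfs1, the Rieske iron-sulfur protein, read 22011, 19370.4 and 19664 in Dahl S (20349 ± 1447, n = 3), 22725 in kidney 4 and 18304 in kidney 5. Cyc1, cytochrome c1, was at 12225 ± 1186 (n = 3), with 12769 in kidney 4 and 11047 in kidney 5, inside the Dahl S range.

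In complex IV on A, Cox5a, a subunit of the matrix side, had the largest spread among Dahl S kidneys. It read 269.8, 172.7 and 432.9 in Dahl S (291.8 ± 131, n = 3), 281.7 in kidney 4 and 563.2 in kidney 5. Its mean of 344.1 was little above the level needed for a test (319.5). The Dahl S mean and kidney 4 lay below that level, so this dim probe set reached it only through kidney 5. Its high value in kidney 5 is therefore not read as a result. Cox7a2l, a factor of supercomplex assembly, read 3226, 2948 and 1796 in Dahl S (2657 ± 758, n = 3), 2402 in kidney 4 and 2242 in kidney 5 by 1 of its 2 probe sets. Kidney 3 was the low one there, and also by the other probe set (1571). Cox4i1, the ubiquitous form of subunit 4, read 35524, 35838 and 37399.6 in Dahl S (36254 ± 1004, n = 3), 36924 in kidney 4 and 30691 in kidney 5 by its steadiest probe set. Kidney 5 alone stood low there. By another probe set of the gene it was again the lowest, at 7316 against 7438 to 9047 in Dahl S. By the remaining one it read 22716, inside the Dahl S range of 20731 to 25577. Cox5b was at 15423 ± 954 (n = 3) in Dahl S, 15942 in kidney 4 and 13937 in kidney 5, the lowest, by its steadiest probe set. By its other probe set kidney 5 read 6520.4, inside the Dahl S range of 5716 to 7162. Over the 22 probe sets of complex IV the median deviation was 0.04 in kidney 4 and -0.19 in kidney 5, which was the lowest kidney for 10 of 22.

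**Figure D3:**
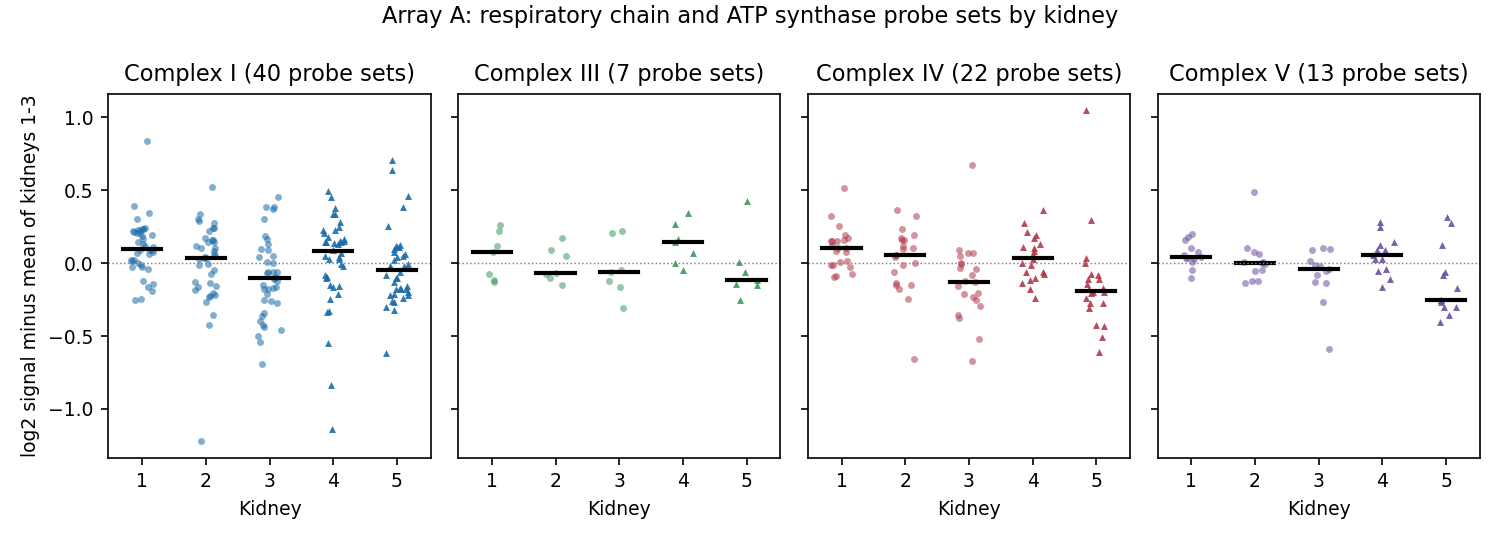
Log2 signal of each tested probe set on array A minus its mean over kidneys 1 to 3 (vertical axis), by kidney (horizontal axis), for complexes I (40 probe sets), III (7), IV (22) and V (13). Circles are Dahl S kidneys 1 to 3, triangles kidneys 4 and 5, whose strain is unsettled, and black bars medians; in kidney 5 the median is -0.19 for complex IV and -0.25 for complex V.

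Some subunits of complex IV have isoforms known from muscle or other tissues, and A carried pairs of them. Cox8b, the muscle form of subunit 8, was under the floor of 85.1 in all 5 kidneys by 1 probe set. By the other it was under the floor in 4, with 262.3 in kidney 4. Cox8a, the form of most tissues, was read in every kidney, for example at 26288, 25886 and 22735 in Dahl S, 22645 in kidney 4 and 23082 in kidney 5. Cox6a2, the muscle form of subunit 6a, was under the floor in all 5 kidneys by 1 probe set, while 2 with a suffix read 573.1 to 838.5 and 447.2 to 586.1 and may share probes with other transcripts. Cox4i2, known from lung and for its induction by hypoxia, read 1661, 1954 and 1654 in Dahl S (1756 ± 171, n = 3), 1738 in kidney 4 and 1146 in kidney 5. Cox6b2, the testis form, was on B at 266.0 to 388.8, below the level for a test. Of the muscle markers, 2 of 10 on A reached the level for a test, and their summed signal over the list was 2944 to 3764. The list holds Cox6a2 and Cox8b themselves.

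**Figure D4:**
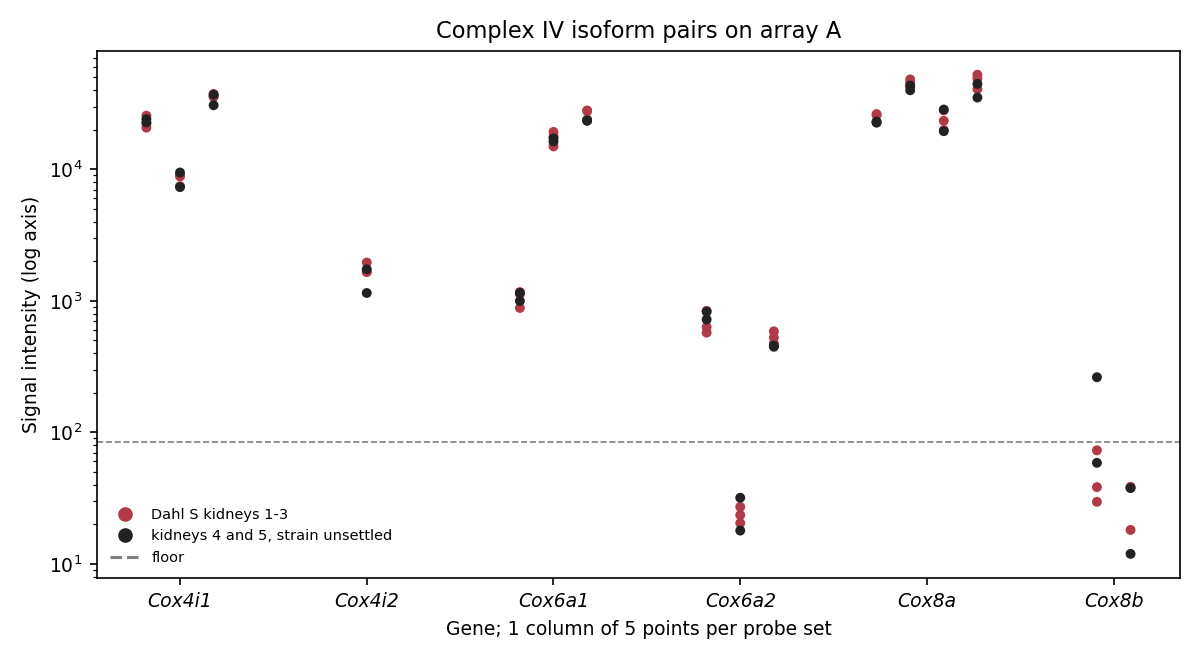
Signal intensity (vertical log axis) on array A of the probe sets of 3 isoform pairs of complex IV, with 1 column of 5 points per probe set. Red points are Dahl S kidneys 1 to 3 and black points kidneys 4 and 5; the dashed line is the floor of 85.1, under which all 5 points of 1 Cox6a2 and 1 Cox8b probe set lie, and heights of different probe sets are not comparable.

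Complex V was the most even of complexes I, III, IV and V among Dahl S kidneys on A, with a median SD of log2 signal of 0.11 over 13 probe sets. Atp5f1c, the gamma subunit of the rotating stalk (chromosome 17), read 7381, 7391 and 7301 in Dahl S (7357 ± 49.1, n = 3), 8021 in kidney 4 and 6126 in kidney 5. Kidneys 4 and 5 both lay outside the narrow Dahl S range, on opposite sides. Atp5f1e, the epsilon subunit, read 13364, 12927 and 12641 in Dahl S (12977 ± 364, n = 3), 13210.2 in kidney 4 and 10870.1 in kidney 5, which alone was low. Atp5f1b, the catalytic beta subunit, read 28725, 30929 and 32824 in Dahl S, 27418 in kidney 4 and 25876 in kidney 5, and again kidney 5 was the lowest. Atp5pd read 7647, 7989 and 6775 in Dahl S (7470.4 ± 626, n = 3), 8863 in kidney 4 and 5629 in kidney 5. Atp5pb, a peripheral stalk subunit, went the other way, with 6475, 5883 and 4682 in Dahl S (5680.3 ± 914, n = 3), 5478 in kidney 4 and 6807 in kidney 5, the highest.

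Kidney 5 had the lowest signal of the 5 kidneys for more members than any other kidney on B and C. This held for 10 of 23 members on B (43.5%, against 19.1% of all tested) and 11 of 25 on C (44%, against 22.5%). On A kidney 5 was the lowest for 28 of 88 (31.8%, against 16.5%), while kidney 3 was the lowest for 30 (34.1%, against 18.1%) and kidney 1 the highest for 31 (35.2%, against 14.7%). The complexes differed in this. In complex I on A, kidney 5 was the lowest for only 5 of 40 probe sets (12.5%) and kidney 3 for 17 (42.5%). For complex I on B and C, kidney 5 was the lowest for 5 of 10 and 4 of 10. Among complex V probe sets, kidney 5 was the lowest for 9 of 13 on A, for 4 of 4 on B, and for 3 of 6 on C. By gene, 6 of 9 complex V genes of A were lowest in kidney 5 in every tested probe set, as were 3 of 3 of B and 3 of 5 of C. Kidneys of one number may be the same RNA on the 3 designs, so the designs are not independent here.

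The median log2 deviation of complex V in kidney 5 from the mean of kidneys 1 to 3 was -0.25 on A, -0.11 on B and -0.22 on C. In kidney 4 it was 0.05, -0.02 and -0.03. Over all tested members on A the kidney 4 value was 0.06, but 0.21 with a common array median. With quantile normalization, chosen after seeing the data, the kidney 5 values were -0.15 on A, -0.13 on B and -0.06 on C. With a common array median, also chosen then, they were -0.26, -0.05 and -0.27. Over all members that were tested, kidney 5 stood at -0.11 (A), -0.03 (B) and -0.12 (C), and over all tested probe sets at 0.02, 0.00 and 0.00. Because kidney 5 is 1 of the 2 congenic kidneys on B and C, its level enters each strain difference above.

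Other values moved with kidney 5. The summed signal of the proximal tubule markers was 163409.5 in kidney 5 on A, against 191989.9 to 217613 in the other kidneys. Of the 16 probe sets summed, 5 of Slc34a1, a phosphate transporter, made up 55.6% to 62.8%, and without them kidney 5 was still the lowest, at 72592 against 74302 to 88985. The markers did not all go the same way, since Cubn, an endocytic receptor, was highest in kidney 5. On C, 4 such markers summed to 104660.3 against 117016 to 139836. Miox made up 54.9% to 66.6% of this, and without it kidney 5 read 36607 against 43809 to 63010.3. On B the only proximal tubule marker, G6pc1, read 7704 against 8209 to 10645.

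Markers of some other segments and cell types differed in kidney 5 as well. Of those of the thick ascending limb and distal tubule, 7 of 8 were on A and 6 were tested. The median deviation in kidney 5 was -0.27, and the summed signal of 77824 was the lowest of the 5 (others 79662 to 98382). These markers did not all go the same way. By the brightest probe set of each gene, Kcnj1 and Slc12a1 were lowest in kidney 5. Calb1, Egf and Slc12a3 were lowest in kidney 1, and Umod in kidney 3. On C the only marker of this list, Calb1, stood at 0.25 in kidney 5. On A the medians in kidney 5 were 0.34 for blood markers (3 tested), 0.27 for endothelium (3 tested) and 0.20 for collecting duct (5 tested). They were -0.14 for proximal tubule (10 tested), -0.04 for leukocytes (3 tested) and -0.22 for glomerulus (1 tested). Slc4a1 is in both the blood and the collecting duct list. Collecting duct stood higher in kidney 4, at 0.31. Its markers did not all go the same way on A, since Scnn1g was lowest in kidney 5 (684.2). Endothelial markers disagreed on A, where Flt1 was lowest in kidney 5 (527.9). Their kidney 5 median was 0.095 on B (3 tested) and 0.03 on C (1 tested). The 3′ to 5′ ratio of hexokinase was 2.55 in kidney 5 on C, the lowest (others 2.82 to 3.78). It was 2.29 on A, the next to lowest, and 2.72 on B, inside the range of 2.36 to 2.88 of the others.

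The 99th percentile of signal was 18715 in kidney 5 on A against 19872 to 20571, and 12390.2 on C against 13031 to 13772, but on B it was 11852 within 11046 to 12113. Probe sets above the 90th percentile of mean signal that were no members had a median deviation in kidney 5 of -0.07 on A (n = 400), 0.04 on B (n = 423) and -0.07 on C (n = 424). That bright were 42 of the 88 members of A, 16 of the 23 of B and 18 of the 25 of C. The part of cell type content, RNA integrity and the upper end of the signal scale in the low kidney 5 values was not tested.

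**Figure D5:**
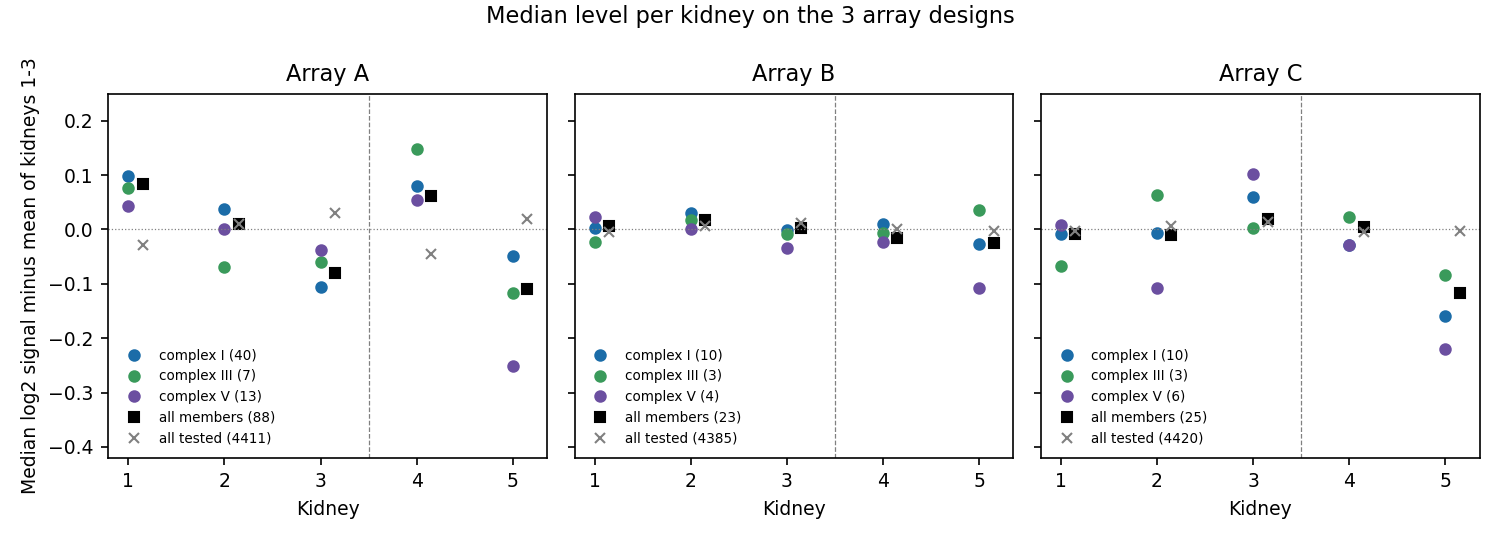
Median log2 signal minus the mean of kidneys 1 to 3 (vertical axis) in each kidney (horizontal axis) on arrays A, B and C, for complexes I, III and V, all tested members (squares) and all tested probe sets (crosses), with the number of probe sets in parentheses. The dashed line parts kidneys 1 to 3 (Dahl S) from kidneys 4 and 5 (congenic on B and C, strain unsettled on A); complex V is at -0.25, -0.11 and -0.22 in kidney 5.

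Genes that work beside the complexes showed no strain difference past the threshold on B or C. Of 40 further assembly factors listed, 12 were tested on B (5 below 0, 7 above) and 16 on C (8 and 8), and 0 passed an adjusted p of 0.05 in limma. The smallest unadjusted p on B was that of Acad9, an assembly factor of complex I, at -0.29 (SE 0.13, adjusted p = 0.998), but on C Acad9 was at 0.10 (SE 0.16). Of the citric acid cycle genes, 6 were tested on B (2 below 0, 4 above) and 8 on C (4 and 4), with medians of 0.04 and -0.02. Carriers, porins and genes of electron entry gave 2 on B (both above 0) and 10 on C (4 below, 6 above). Of the regulators of mitochondrial biogenesis, 5 were tested on B (2 below 0, 3 above) and 7 on C (5 below, 2 above). Among them Nrf1, whose motif was searched above, read 1218, 509.3 and 1166 in Dahl S and 1195 and 1578 in congenic kidneys on B. Dahl S kidney 2 alone was low, and the difference was 0.61 (SE 0.39, adjusted p = 0.998). Esrra, a nuclear receptor that acts with PGC-1 coactivators, was at -0.13 (SE 0.13) on C.

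Probe sets of the same gene did not always agree. On A, 24 genes had more than 1 tested probe set, and for 8 of them every such probe set was lowest in the same kidney. On B this was so for 2 of 5 genes and on C for 0 of 3. Ndufab1, the acyl carrier protein of mitochondria and a complex I subunit, was under the floor in all 5 kidneys by 1 probe set (40.5 to 63.0), while another probe set of the gene read 6000.1 to 8163. Ndufb11 did likewise on A, with 28.4 to 66.4 by 1 probe set and 2819 to 3665 by another. A low probe set therefore gives no bound on the transcript of these genes.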

How the data were processed

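The authors deposited 1 linear signal intensity per probe set and array, and how it was made is not given in the sources used here. All arrays share a common mean without the top and bottom 2%, so they had been scaled, and this scale was kept. Each design was handled alone. A floor was set at the 25th percentile (85.1 on A, 140.1 on B, 153.6 on C), log2 was taken, and probe sets were tested where the mean reached the median of all values (319.5, 485.8 and 510.3). This left 4411, 4385 and 4420 probe sets, without the 59 control probe sets of each design. Fold differences are on this floored log2 scale.

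Strains were compared on B and C in limma 3.58.1 (lmFit, then eBayes with no intensity trend; R 4.3.3). P-values were adjusted by Benjamini-Hochberg within each design over everything tested, with a threshold of 0.05. The procedure was tested on simulated data. The labels do not say that kidneys came from separate animals, so p-values measure only how these samples spread, and that may be technical. Counts and shares used pandas 2.3.3 in Python 3.11.15.

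All 160 member probe sets matched a RefSeq gene (GRCr8) by identifier, and names and chromosomes come from there. Probe sets with several symbols, among them 7 on A, 1 on B and 1 on C with a family member, were not used. Named genes were the up to 3 of each complex with the smallest p on B and on C, the 2 with the largest and the 2 with the smallest SD among Dahl S kidneys on A, chromosome 10 members, members on several designs and tissue isoforms. Others are named where they show disagreement between probe sets or the order of kidneys, and were chosen after their values were seen. The 8-letter NRF1 core was also added then. Members and gene lists were chosen with earlier results of these data known. Alternatives covered normalization, floor, filter, variance model, array weights and leaving out each kidney.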

Additional observations from a re-analysis of the deposited data

How the results depend on the processing

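No paired analysis was possible because the groups compared share no kidney numbers. Over all probe sets, the calls on B (4 as reported) were 1 with quantile normalization, a common median, a floor at the 10th or 40th percentile, a filter at the 75th percentile or array weights, and 0 to 31 with 1 kidney left out, the 31 without congenic kidney 5. On C (0 as reported, with 274 at an unadjusted p under 0.05) there were 2 calls with no filter and 1 with an intensity trend and robust variance, and 0 to 35 with 1 kidney left out, the 35 without congenic kidney 5. None was a member. The median member difference on B (-0.019) was -0.031 with quantile normalization, 0.0035 with a common median and -0.038 to -0.0027 with 1 kidney left out. On C (-0.020) it was 0.020, -0.052, -0.037 with the filter at the 75th percentile and -0.12 to 0.0043 with 1 kidney left out, and 10 of 25 members were below 0 with quantile normalization. On A the members' median in kidney 4 (0.061) was 0.21 with a common median.

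Of 320 alternative values for the 27 named genes and designs, 23 turned sign, none of them called. With quantile normalization these were Uqcr10 (-0.0121) and Uqcrc1 (-0.0251) on B and Sdhc (0.0555) on C. With array weights Sdhc was 0.0037 and Sdhb -0.0275, and with a common median Sdhb was -0.0310. The others turned when 1 kidney was left out, and their ranges then were as follows. On B they were -0.251 to 0.0275 for Atp5if1, -0.216 to 0.0083 for Ndufa4l2, -0.0059 to 0.0389 for Uqcrc1, -0.0576 to 0.0676 for Atp5pd and -0.204 to 0.109 for Ndufa13-ps1. On C they were -0.512 to 0.0474 for Ndufs1, -0.120 to 0.105 for Sdhc, -0.0381 to 0.0515 for Sdhb, -0.0020 to 0.244 for Uqcrc2, -0.0837 to 0.0229 for Uqcrb, -0.0150 to 0.214 for Cox7c and -0.207 to 0.0163 for Atp5po. The cause was not tested. With 2 congenic kidneys, differences of this size cannot be told from 0.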
